A study of Danio rerio with 8 samples.

Results

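Broad start site clusters are stretches of the zebrafish (Danio rerio) genome over which many neighbouring bases serve as starts of capped RNAs. The broad regions described here were chosen by width alone. The data give the ends of each cluster and its level, so how many bases within it serve as starts was not seen. The deposited data hold 2 cluster lists, and same-strand clusters of the lists that overlapped were merged into 42130 regions, of which 23602 held clusters of both lists. A merged region counted as broad when it was made of exactly 1 cluster of each list, with an end minus start of at least 100 in the list of the libraries whose titles carry no number (replicate 1) and of at least 30 in the list of those ending in 2 (replicate 2). This gave 3596 broad regions, 15.2% of the regions covered by both lists and 18.3% of the 19637 with 1 cluster of each.

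The data are cap analysis gene expression (CAGE) libraries from whole embryos, in which biotin-tagged caps pull down full-length cDNA so that each sequenced tag marks a 5′ end. Embryos carried jam3b-sa37, an allele of the gene for a junctional adhesion molecule of cell contacts, or were wild type (WT), and were taken at 16 or 12 hours post-fertilization (hpf). The 4 groups are sa37 at 16 hpf, sa37 at 12 hpf, WT at 16 hpf and WT at 12 hpf, with 2 libraries each. Values are RPM, tags of a cluster scaled to the total of the library. The labels do not say whether the sa37 embryos were homozygous, how many embryos went into a library or whether the libraries of a group came from separate clutches, so p-values measure only the spread between these libraries. A whole embryo mixes all tissues, so that fewer cells of a type and less RNA per cell cannot be told apart. Coordinates are those of the files, on build danRer10. No annotation or sequence of that build was used here, so regions are named by position, their genes are not given and the level of jam3b was not examined.

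In vertebrates, RNA polymerase II starts transcription either at a sharp position, often set by a TATA box or a strong initiator, or over a dispersed stretch. Dispersed promoters are commonly rich in CpG dinucleotides and are typical of genes used in many cell types, while sharp promoters are more often tied to tissue-restricted genes. In the zebrafish embryo, start selection shifts at the activation of the zygotic genome towards broad promoters whose starts are positioned relative to the first downstream nucleosome.

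Replicate 2 libraries held 16938015 to 23300915 tags in distinct clusters, which put the median broad region at 278 to 418 tags in a library. Tag totals of replicate 1 were not derived here. Among tested broad regions, replicate 2 exceeded replicate 1 by a median of 0.52 to 0.62 on the log2(RPM + 1) scale in the 4 groups, so levels of the 2 numbers are not interchangeable. Both sides of each comparison are present in either list.

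The widths chose the regions and are given as a description. In the replicate 1 list the 3596 broad regions had a median width of 155 bases (quartiles 119 and 230, highest 802). In the replicate 2 list the median was 127 bases (quartiles 90 and 163, highest 279), and 2537 of them (70.6%) reached 100 bases there too. The rule left out many regions that were wide in a single list: 1394 regions reached 100 bases in the replicate 1 list but stayed under 30 in the other, and 9694 reached 30 in the replicate 2 list but stayed under 100 in the other. Over all 19637 regions with 1 cluster of each list, the widths correlated with a Spearman's rho of 0.47 across regions. Among the broad regions alone rho was -0.14, a value that the 2 width bounds also shape. Neighbouring regions are not independent, and this is a description only.

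**Figure D1:**
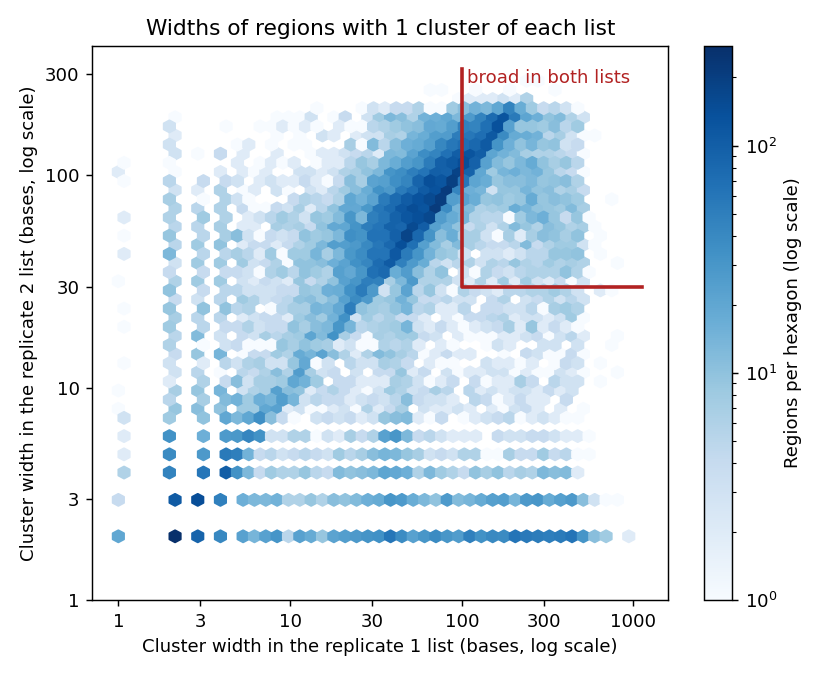
Cluster width in the replicate 1 list (x, bases, log scale) against the replicate 2 list (y, bases, log scale) for the 19637 regions with 1 cluster of each list; colour gives the number of regions per hexagon and the red lines bound the 3596 broad regions. A dense diagonal band enters the bounded corner, and a second, scattered group lies to its right, wide in the replicate 1 list at any width in the other.

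The broad regions were divided by the ratio of their 2 widths, a split made after the widths were seen. In 2181 regions (60.7%) the 2 widths were within 1.5-fold of each other, with medians of 133 bases in the replicate 1 list and 144 in the replicate 2 list, a likeness that the split itself fixes. In 1285 regions (35.7%) the replicate 1 cluster was more than 1.5 times wider, with medians of 271 and 73 bases. There the upstream edges of the 2 clusters lay close together, with a median offset of -1 base, while the replicate 1 cluster ran a median of 138 bases further downstream. In the remaining 130 regions the replicate 2 cluster was wider, with medians of 108 bases in list 1 and 184 in list 2. The regions of like width had a median level of 16.7 RPM (quartiles 6.57 and 41.8), and those with a wider replicate 1 cluster had 8.47 RPM (quartiles 1.94 and 24.1). The 3 regions widest in the replicate 1 list all have a wider cluster there, since no replicate 2 cluster of a broad region exceeded 279 bases. The widest, chr19:560539-561341 on the plus strand, spanned 802 bases in the replicate 1 list and 38 in the other. It held 1.33 and 0.623 RPM in sa37 at 16 hpf, 1.79 and 0.286 in sa37 at 12 hpf, 0.61 and 0.547 in WT at 16 hpf, and 0.63 and 0.428 in WT at 12 hpf. The next, chr15:2764638-2765416 on the minus strand and chr2:36653315-36654057 on the plus strand, were 778 and 742 bases wide in that list, against 76 and 30 in the other, and averaged 1.17 and 1.15 RPM. All 3 of these were weak regions.

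Broad regions were used at middling to high levels and were seldom silent. Their median level in replicate 1 was 11.6 RPM in sa37 at 16 hpf, 9.57 in sa37 at 12 hpf, 10.3 in WT at 16 hpf and 9.8 in WT at 12 hpf. In replicate 2 it was 17.4, 15.9, 16.4 and 15.2 RPM in the same order of groups. In both replicates and genotypes the median was higher at 16 hpf than at 12 hpf, and at 16 hpf it was higher in sa37. At 12 hpf replicate 1 had the lower median in sa37. Over all shared regions the median was likewise higher at 16 hpf, and higher in sa37 at 16 hpf, in both replicates. These medians were 4.1, 3.33, 3.61 and 3.21 RPM in replicate 1, in the same order of groups. In replicate 2 they were 6.77, 5.73, 6.22 and 5.48 RPM. Regions narrow in both lists (under 100 and under 30 bases, 4953 regions) had medians between 0.85 and 1.04 RPM in replicate 1, and between 1.16 and 1.41 in replicate 2, below those of the broad regions in all 8 libraries. A cluster needs tags to be wide, so width and level share their source and no test was made between the classes. Of the broad regions, 3249 (90.4%) were above 0 in all 8 libraries, against 42.2% of the narrow ones. A library listed 120 to 188 broad regions at 0 in replicate 1 (3.34 to 5.23%) and 4 to 12 in replicate 2 (0.111 to 0.334%). Shared regions merged from several clusters of a list had similar shares at 0. These were 5.02 to 6.2% in replicate 1 and 0.126 to 0.454% in replicate 2, so few zeros are not particular to broad regions.

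**Figure D2:**
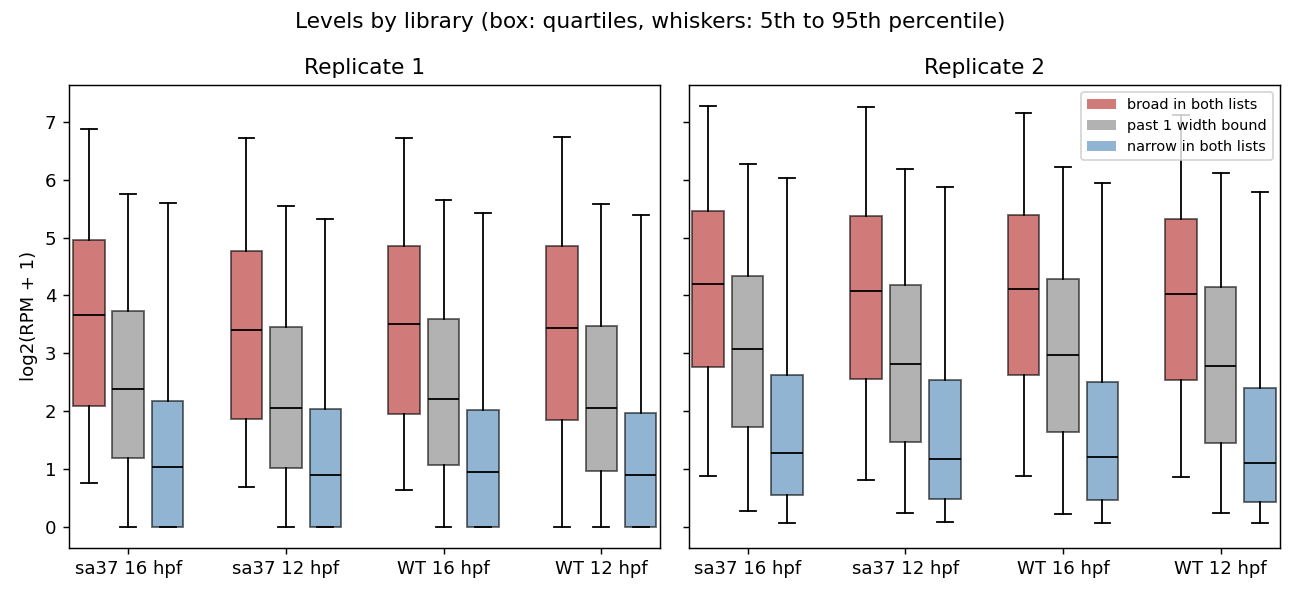
Level, as log2(RPM + 1), of regions broad in both lists (red), past 1 of the 2 width bounds (grey) and narrow in both lists (blue), by group and replicate; boxes are quartiles with the median, whiskers the 5th to 95th percentile. The broad regions sit highest in every library, with medians of 9.57 to 11.6 RPM for the first replicate number and 15.2 to 17.4 RPM for the other.

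The bulk of the broad regions lay well below the strongest. A mean of 10 RPM over the 8 libraries was reached by 2097 of them (58.3%) and 100 RPM by 254 (7.06%). Together they held 14.1%, 13.2%, 13.2% and 13.4% of the RPM of all shared regions in replicate 1 of sa37 at 16 hpf, sa37 at 12 hpf, WT at 16 hpf and WT at 12 hpf. In replicate 2 they held 16.6%, 16.2%, 15.8% and 15.6% in the same groups. Their share was thus close to their 15.2% of the regions, while the 10 strongest took 16.3 to 20.8% of the broad regions' RPM in replicate 1, against 10.6 to 14.3% in replicate 2. The strongest broad region was chr8:23759751-23759875 on the plus strand, 124 bases wide in list 1 and 119 in list 2. It had 6622 and 4151 RPM in sa37 at 16 hpf, 9247 and 4928 in sa37 at 12 hpf, 6696 and 5681 in WT at 16 hpf, and 6992 and 6951 in WT at 12 hpf. The sa37 libraries spanned a wider range that held all WT values, and neither the genotype nor the stage difference passed, with or without the block. The next, chr4:76325023-76325164 on the plus strand, had 2902 and 1910 RPM in sa37 at 16 hpf against 4748 and 3288 in sa37 at 12 hpf. In WT it had 2763 and 2328 RPM at 16 hpf against 7177 and 4000 at 12 hpf. It was lower at 16 hpf in both replicates of each genotype, by 0.91 on the log2 scale averaged over genotypes (SE 0.31), with a limma adjusted p of 0.288 unblocked and 0.00341 with the replicate number as a block. Regions chr16:33151488-33151665 (minus strand) and chr5:32282524-32282641 (plus strand) followed, with means of 1669 and 1461 RPM.

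The level varied with width in a different way in each list. Divided into quartiles by the replicate 1 width, the broad regions had median levels of 15.3, 15.8, 14.4 and 9.35 RPM from the narrowest to the widest quartile. Divided by the replicate 2 width, the medians were 5.46, 16.1, 17.6 and 17.96 RPM. Regions just inside the bound of 100 bases (100 to 109 in list 1, 533 regions) had a median of 15.1 RPM, and those just outside (90 to 99, with at least 30 in list 2, 611 regions) had 13.5 RPM. At the other bound, the 75 regions of 30 to 34 bases in list 2 had a median of 1.24 RPM and the 82 of 25 to 29 bases had 1.18.

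On the genome the broad regions were spread over all 25 chromosomes and the other sequences, with 1781 on the plus and 1815 on the minus strand. They made up 11.5% of the shared regions on chromosome 4, the lowest share, and 18.2% on chromosomes 15 and 18, the highest. The nearest shared region on the same strand lay a median of 15.3 kb from a broad region, against 5.44 kb from a narrow one and 12.5 kb over all shared regions. Regions past 1 bound had a larger median distance, 19.3 kb. Within 1000 bases, 9.26% of broad and 27.1% of narrow regions had a same-strand neighbour, against 8.58% of those past 1 bound and 15.3% of all shared regions; a broad region was kept only when it merged with no further cluster of either list. An opposite-strand region within 1000 bases upstream, the arrangement of a divergent promoter pair, was found for 266 broad regions (7.40%). The share was 5.37% of the narrow regions, 8.08% of those past 1 bound and 7.20% of all shared regions.

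The first comparison asked which broad regions differed between jam3b-sa37 and WT embryos. Of the 3596, the 3401 with a mean of at least 1 RPM were tested, in a limma fit over all 19000 shared regions past that bound, and a region was called at a Benjamini-Hochberg adjusted p under 0.05. The other 195 were not tested. A region near 0 in 1 genotype or stage passed the bound only through the libraries in which it was high. Averaged over stages, 13 broad regions were called, 10 higher and 3 lower in sa37 (0.382% of those tested). Of all 19000 regions 0.632% were called, 0.384% higher and 0.247% lower. A fit that took the replicate number as a block called 189, of which 136 were higher and 53 lower (5.56% of the broad regions). Fits with this block are termed blocked from here on. Unblocked, the spread within a group also holds the offset between the replicate numbers. Blocked, 7.36% of all tested regions were called, 4.74% higher and 2.63% lower, and 12.3% of the 2656 narrow ones. Of the 3590 tested regions merged from several clusters of a list, 4.74% were called, 2.65% higher and 2.09% lower. A low share of calls is thus not particular to broad regions. The share of higher regions moved with scaling: after quantile normalization it was 57.9% of 178 blocked calls, against 72.0% without that step. There 6.86% of all tested regions were called, 3.67% higher and 3.18% lower.

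At 16 hpf a single broad region was called unblocked and 43 blocked, 34 higher and 9 lower in sa37. Of all tested regions 0.0895% were called unblocked and 2.13% blocked, 1.37% higher and 0.758% lower. At 12 hpf the counts were 1 unblocked and 58 blocked, 33 higher and 25 lower in sa37. Here 0.1% of all tested regions were called unblocked and 2.87% blocked, 1.61% higher and 1.26% lower. The 43 and the 58 shared 24 regions, 55.8% of the calls at 16 hpf and 41.4% of those at 12 hpf. All 24 had the same direction at both stages, 19 of them higher in sa37. Over all tested regions the shares were larger, with 269 shared calls, 66.6% of those at 16 hpf and 49.3% of those at 12 hpf, and all 269 also had 1 direction. The stages share no library, but both comparisons take their spread and block from the same fit, so their calls are not independent.

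Most genotype differences of broad regions were small. The median size of the averaged difference was 0.15 on the log2(RPM + 1) scale, against 0.17 over all tested regions and 0.23 over narrow ones. In regions merged from several clusters of a list it was 0.16, and in those past 1 bound 0.18. Only 70 of the 3401 (2.06%) reached a 2-fold difference, as did 4.35% of all tested and 10.7% of narrow regions. The share was 2.53% in regions of several clusters and 4.07% in those past 1 bound. Small differences are thus not particular to broad regions. The regions that differed at least 2-fold in both replicates in the same direction numbered 41 at 16 hpf (32 higher, 9 lower; 1.21% of the broad regions and 2.43% of all tested) and 45 at 12 hpf (24 higher, 21 lower; 1.32% and 2.81%). Regions 2-fold apart in opposite directions in the replicates numbered 1 at 16 hpf (0.0294%, against 0.126% of all tested) and 5 at 12 hpf (0.147%, against 0.189%). Lower levels give noisier values, so the shares were also read at matched level. Among regions of 100 RPM or more, 7 of 254 broad regions were called with the block (2.76%), against 28 of 187 narrow ones (15.0%) and 7.28% of all tested. Between 5 and 20 RPM the shares were 5.18% of 1197 broad and 13.8% of 689 narrow regions, with 6.97% of all tested. Between 1 and 5 RPM they were 8.42% and 12.0%, with 9.53% of all tested. From 20 to 100 RPM they were 4.63% and 8.40%, with 4.31% of all tested. The broad share was below the narrow one in each of these level classes, but not below that of all tested regions from 20 to 100 RPM. Of regions past 1 bound 3.89% were called there, also under the broad share, and larger shares than of broad regions in the other level classes. These class differences were not tested.

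**Figure D3:**
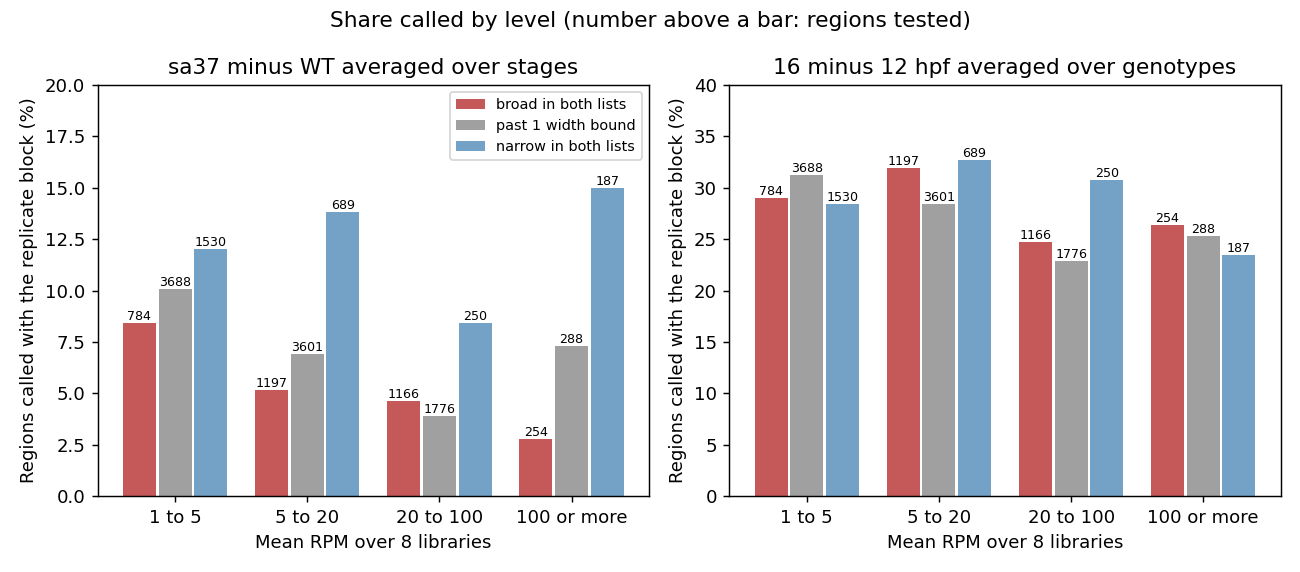
Percent of tested regions called with the replicate block, by mean RPM, for regions broad in both lists (red), past 1 width bound (grey) and narrow in both lists (blue), with the number tested above each bar; left, sa37 minus WT averaged over stages, right, 16 minus 12 hpf averaged over genotypes, on different scales. On the left the red bars run from 8.42% down to 2.76% and lie under the blue ones; on the right the 3 colours lie between 22.9 and 32.7%.

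Regions named here are the 4 per direction with the smallest p without the block. The first of those higher in sa37 (sa37-high A), chr25:7539414-7539541 on the minus strand, was high in every sa37 library and near 0 in every WT library. It held 65.9 and 68.8 RPM in sa37 at 16 hpf and 75.4 and 73.8 at 12 hpf, while WT libraries held 0 and 0.126 at 16 hpf and 0 and 0.043 at 12 hpf. Its difference was 6.11 (SE 0.21, limma adjusted p 0.000157 unblocked and 3.19e-06 blocked), and it was the broad region called at each stage without the block. Of the 189, it alone had at least 5 RPM in every sa37 library and at most 0.6 RPM in every WT library. None of the 189 showed the reverse at these bounds, which the chromosome 8 region named sa37-low A missed through 1 sa37 library at 0.64 RPM. The same count was not made over all 1399 regions called with the block, so these counts do not set broad regions apart.

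Region sa37-high B, chr15:14311665-14312107 on the minus strand, was 442 bases wide in list 1 and 59 in list 2. It had 310.4 and 387.8 RPM in sa37 at 16 hpf against 42.8 and 25.3 in WT, and 182.6 and 145.2 in sa37 at 12 hpf against 16.6 and 14.6 in WT. Each pair of libraries was 7.26 to 15.3-fold higher in sa37 (difference 3.33, SE 0.26, limma adjusted p 0.00669 unblocked and 0.000351 blocked). This region was also above its 12 hpf level at 16 hpf in each pair of libraries (1.06, limma adjusted p 0.134 unblocked and 0.00674 blocked).

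Region sa37-high C, chr4:66306431-66306609 on the plus strand, had 546.5 and 192.0 RPM in sa37 at 16 hpf against 4.34 and 1.26 in WT. At 12 hpf it had 301.3 and 87.4 RPM in sa37 against 3.69 and 1.11 in WT. The ratio of sa37 to WT was 78.5 to 152 in the 4 pairs of libraries, although replicate 1 stood above replicate 2 in every group (difference 6.12, SE 0.59, limma adjusted p 0.0118 unblocked and 9.07e-06 blocked). Region sa37-high D, chr21:45642128-45642326 on the minus strand, was weak, with 2.54 and 3.95 RPM in sa37 at 16 hpf and 3.59 and 4.29 at 12 hpf. In WT it was listed at 0 in 3 libraries and at 0.043 RPM in replicate 2 at 12 hpf (difference 2.17, SE 0.23, limma adjusted p 0.0149 unblocked and 0.000392 blocked). With a mean of 1.8 RPM, it passed the bound for testing through the sa37 libraries alone.

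Among regions lower in sa37, sa37-low A, chr8:24376864-24377208 on the plus strand, had 0.64 and 0 RPM in sa37 at 16 hpf against 48.4 and 55.2 in WT. At 12 hpf it had 0 and 0 RPM in sa37 against 12.8 and 59.5 in WT. Its difference was -5.11 (SE 0.48, limma adjusted p 0.0118 unblocked and 0.00181 blocked). Region sa37-low B, chr8:23172697-23172961 on the minus strand, had 0 and 1.54 RPM in sa37 at 16 hpf against 19.0 and 22.5 in WT, and 0.51 and 0.172 in sa37 at 12 hpf against 13.3 and 22.7 in WT. Its difference was -3.78 (SE 0.37, limma adjusted p 0.0118 unblocked and 0.000939 blocked). With a pseudocount of 0.1 in place of 1 the adjusted p was 0.0977 without the block and 0.0591 with it.

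Region sa37-low C, chr15:14274137-14274430 on the minus strand, had 1.68 and 1.70 RPM in sa37 at 16 hpf against 8.32 and 6.31 in WT, and 1.11 and 2.58 in sa37 at 12 hpf against 10.7 and 12.6 in WT. Every WT library was above every sa37 library (difference -1.91, SE 0.26, limma adjusted p 0.0395 unblocked and 0.00309 blocked, and 0.0548 without the block at a pseudocount of 0.1). It lies on the same strand of chromosome 15 as sa37-high B, and the 2 differed in opposite directions. Region sa37-low D, chr3:45836340-45836524 on the minus strand, had 0 and 0.083 RPM in sa37 at 16 hpf against 8.38 and 20.7 in WT, and 0 and 0 in sa37 at 12 hpf against 1.41 and 7.67 in WT. Its difference of -2.99 (SE 0.47) did not pass without the block (limma adjusted p 0.0646) and did with it (0.00418).

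**Figure D4:**
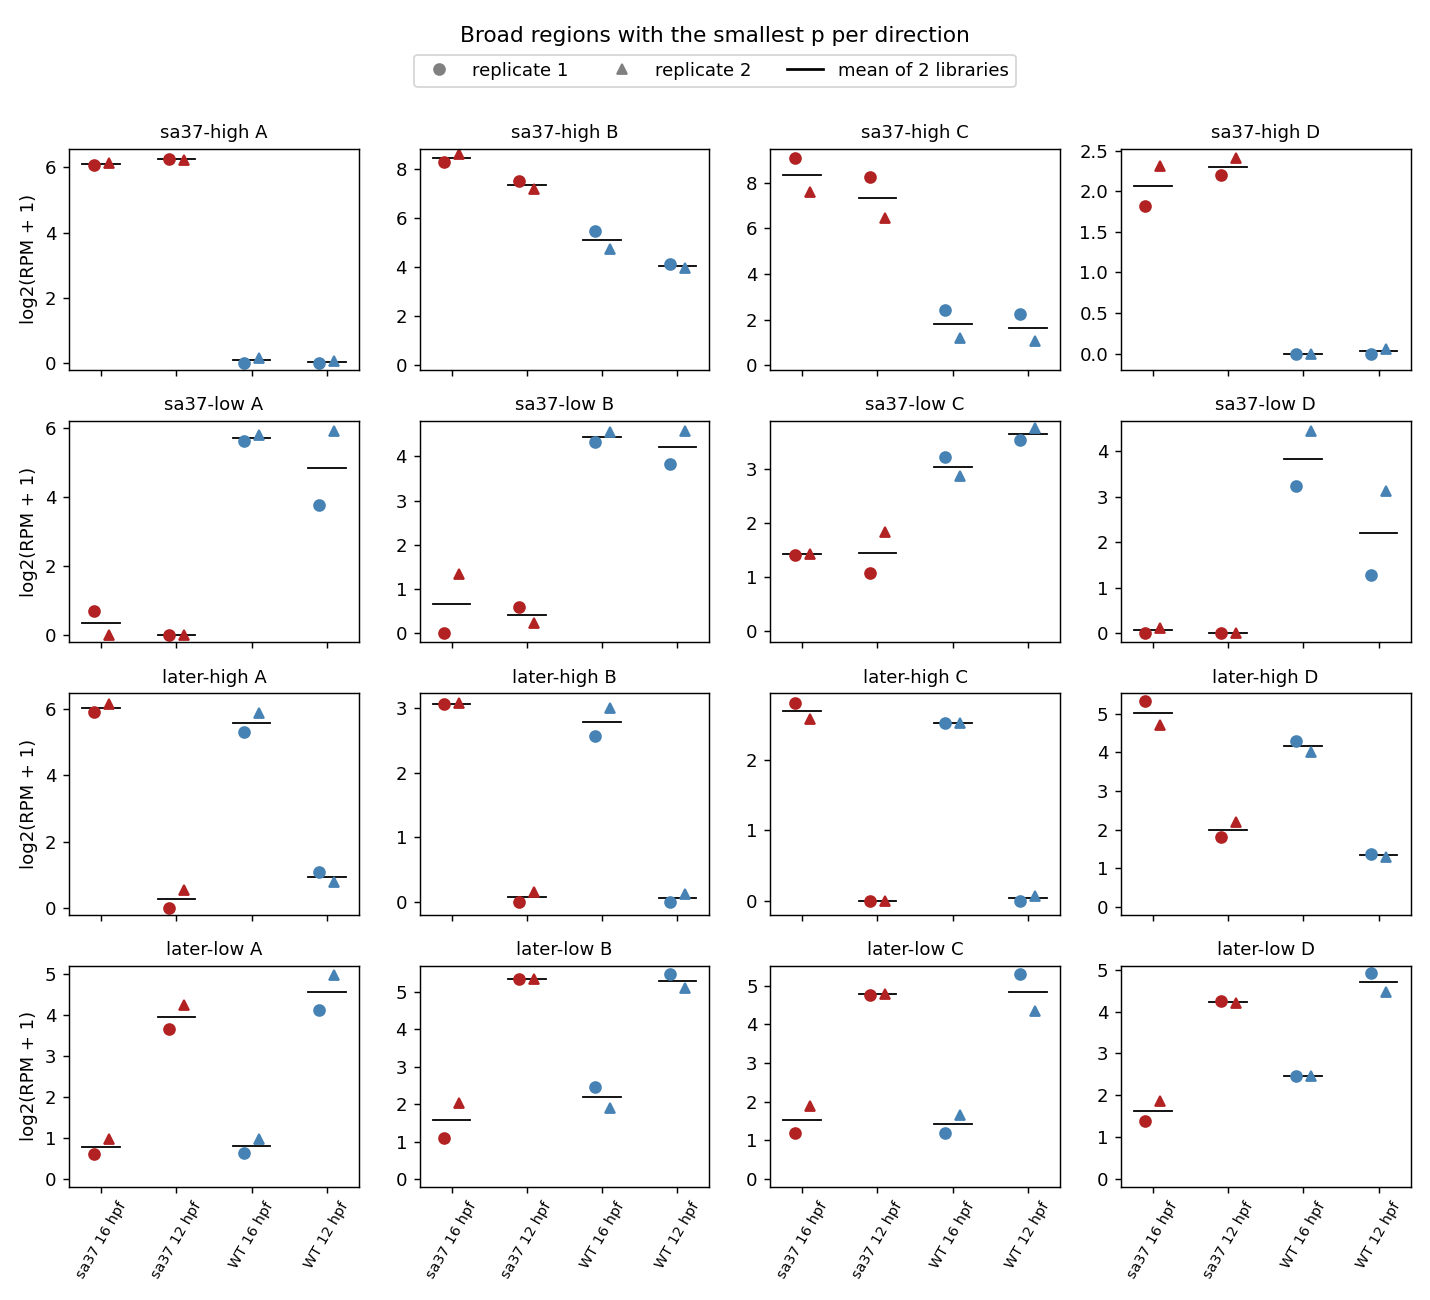
Level, as log2(RPM + 1), of the 16 broad regions with the smallest p per direction, by group, with sa37 in red and WT in blue, circles for replicate 1, triangles for replicate 2 and a line for the mean of the 2 libraries. The upper 2 rows are the sa37-high and sa37-low regions, in which every red point stands apart from every blue one; the lower 2 rows are regions higher (later-high) or lower (later-low) at 16 than at 12 hpf, in which both genotypes move alike.

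Broad regions called with the block were found on every chromosome. Of the windows of 1 Mb that held any of the 189, 163 held 1, 11 held 2 and 1 held more. That window was the first Mb of chromosome 4, where 4 of 8 tested broad regions were called with the block, all higher in sa37. On the whole of chromosome 4, 13 of 118 tested broad regions were called with the block, against 5.56% of broad regions on all sequences. Neither calls per window nor calls per chromosome were counted over all tested regions. The window and chromosome 4 counts thus have no background beside them and do not set broad regions apart. The window was singled out after its values were seen. Its largest difference, 1.49 (SE 0.25 with the block), belonged to chr4:139597-139922 on the minus strand, with 1.04 and 4.03 RPM in sa37 at 16 hpf, 0.77 and 2.46 in sa37 at 12 hpf and 0 in all 4 WT libraries. This weak region passed the bound for testing through the sa37 libraries alone, so its call leans on the group where it was high. The smallest values above 0 in the replicate 1 libraries of sa37 were 0.52 RPM at 16 hpf and 0.51 at 12 hpf. The other called regions started at 295176, 376851 and 951820, with differences of 0.58, 0.58 and 0.63. None of the 4 passed without the block, where their limma adjusted p-values ran from 0.301 to 1.00.

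The second comparison asked how broad regions changed between the stages. Averaged over genotypes, 62 were called without the block, 46 higher and 16 lower at 16 hpf (1.82% of the broad regions). Of all tested regions 1.88% were called, 1.51% higher and 0.374% lower. Blocked, 964 were called, 647 higher and 317 lower, or 28.3%, close to the 27.9% of all tested regions (20.2% higher, 7.73% lower) and the 29.4% of narrow ones. The split moved with scaling: after quantile normalization 464 were higher and 511 lower, beside 27.1% of all tested regions (14.1% higher, 13% lower). That step put the median averaged difference of all tested regions at -0.05, against 0.09 without it. The median of the broad regions was -0.07 with it and 0.06 without it.

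Within sa37, 4 broad regions were called unblocked and 499 blocked, 369 higher and 130 lower at 16 hpf. Of all tested regions 0.1% were called unblocked and 14.3% blocked, 11.5% higher and 2.84% lower. Within WT the counts were 1 unblocked and 500 blocked, 311 higher and 189 lower. Of all tested regions 0.0421% were called unblocked and 13.8% blocked, 9.81% higher and 4.03% lower. After quantile normalization the blocked calls within sa37 were 237 higher and 182 lower, where 11.9% of all tested regions were called, 7.23% higher and 4.65% lower. Within WT they were then 246 higher and 244 lower, where 12.8% of all tested regions were called, 7.47% higher and 5.36% lower. The genotypes share no library, but both comparisons take their spread and block from the same fit, so their calls are not independent. Blocked, 350 regions were called in both, 70.1% of the sa37 calls and 70.0% of the WT calls. All 350 had the same direction, 244 higher at 16 hpf. Over all tested regions 1802 were called in both, 66.3% of the sa37 calls and 68.5% of the WT calls, again all in 1 direction, so the broad shares lay near the background. Regions at least 2-fold apart in both replicates in the same direction numbered 205 in sa37 (158 higher, 47 lower; 6.03%, against 6.36% of all tested) and 213 in WT (137 higher, 76 lower; 6.26%, against 6.05%). No broad region changed 2-fold in opposite directions in the replicates of either genotype. Such regions were also rare over all tested, at 0.0632% in sa37 and 0.0263% in WT. Across broad regions, the stage difference in replicate 1 correlated with that in replicate 2 (r = 0.81 in sa37, r = 0.82 in WT). The genotype differences of the replicates correlated less closely (r = 0.56 at 16 hpf, r = 0.40 at 12 hpf). Over all tested regions the stage values were r = 0.75 in sa37 and r = 0.74 in WT. The genotype values were r = 0.54 at 16 hpf and r = 0.49 at 12 hpf, so closer stage agreement is not particular to broad regions. The regions behind these correlations, 3401 of them broad, are not independent.

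**Figure D5:**
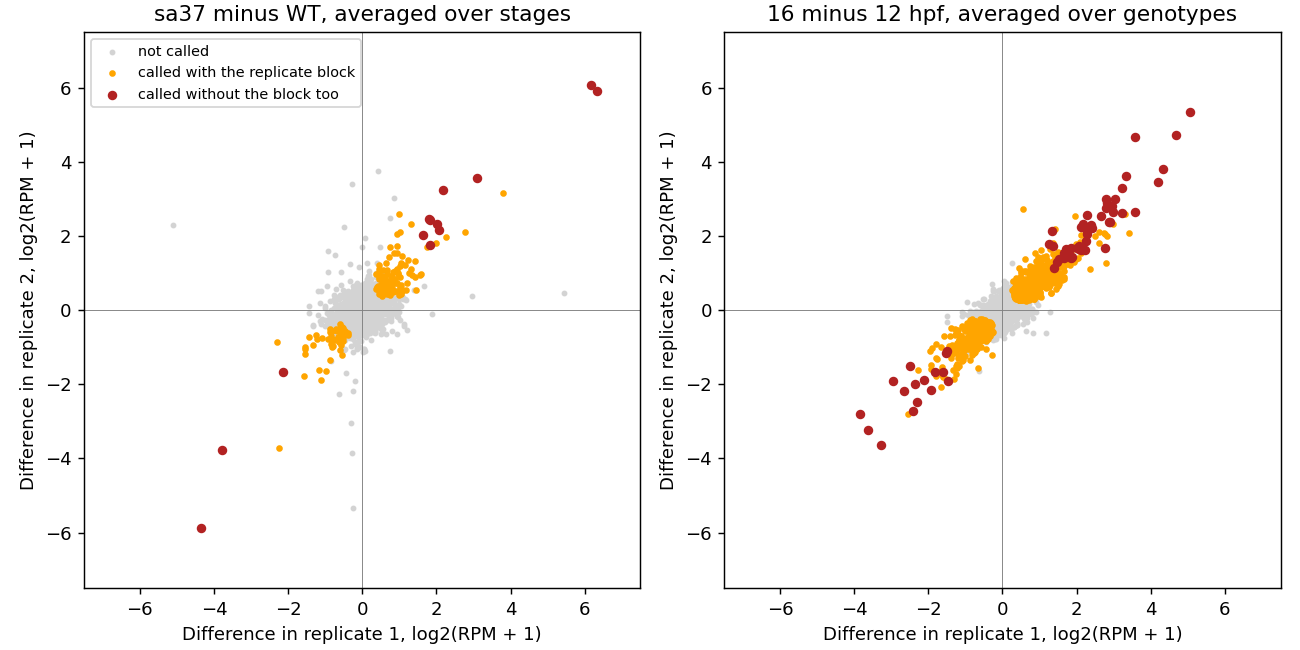
Difference on the log2(RPM + 1) scale in replicate 1 (x) against replicate 2 (y) for the 3401 tested broad regions; left, sa37 minus WT averaged over stages, right, 16 minus 12 hpf averaged over genotypes. Grey regions were not called, orange ones were called with the replicate block (189 and 964 in all) and red ones also without it (13 and 62); the stage cloud stretches along the diagonal, and a few points on the left lie near an axis.

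Of the regions higher at 16 hpf, later-high A, chr4:16461431-16461887 on the minus strand, had the smallest p. In sa37 it had 58.9 and 70.6 RPM at 16 hpf against 0 and 0.458 at 12 hpf, and in WT 38.3 and 57.3 RPM at 16 hpf against 1.1 and 0.728 at 12 hpf. Its difference was 5.21 (SE 0.26, limma adjusted p 0.00159 unblocked and 5.83e-05 blocked). Region later-high B, chr10:43950309-43950556 on the plus strand, had 7.34 and 7.43 RPM in sa37 at 16 hpf against 0 and 0.115 at 12 hpf. In WT it had 4.95 and 6.98 RPM at 16 hpf against 0 and 0.086 at 12 hpf (difference 2.86, SE 0.22, limma adjusted p 0.00666 unblocked and 7.74e-05 blocked). Region later-high C, chr23:18796385-18796534 on the plus strand, was 148 bases wide in both lists. It had 6.01 and 5.02 RPM in sa37 at 16 hpf against 0 and 0 at 12 hpf, and 4.77 and 4.79 in WT at 16 hpf against 0 and 0.043 at 12 hpf (difference 2.60, SE 0.21, limma adjusted p 0.00666 unblocked and 8.43e-05 blocked). These 3 regions were near silence at 12 hpf in both genotypes.

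Region later-high D, chr6:45930253-45930450 on the plus strand, had 39.0 and 25.3 RPM in sa37 at 16 hpf against 2.48 and 3.55 at 12 hpf, and 18.5 and 15.1 in WT at 16 hpf against 1.57 and 1.46 at 12 hpf. It rose 7.11 to 15.7-fold in the 4 pairs of libraries (difference 2.92, SE 0.25, limma adjusted p 0.00775 unblocked and 0.000227 blocked). It was also higher in sa37 than in WT in each of the 4 pairs, by 0.77 on average (limma adjusted p 0.607 unblocked and 0.0481 blocked).

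Of the regions lower at 16 hpf, later-low A, chr7:7186869-7186973 on the minus strand, had 0.52 and 0.955 RPM in sa37 at 16 hpf against 11.5 and 17.8 at 12 hpf, and 0.55 and 0.967 in WT at 16 hpf against 16.4 and 30.7 at 12 hpf. Its difference was -3.45 (SE 0.30, limma adjusted p 0.00775 unblocked and 7.74e-05 blocked). Region later-low B, chr12:30645939-30646116 on the minus strand, had 1.16 and 3.11 RPM in sa37 at 16 hpf against 39.9 and 39.3 at 12 hpf, and 4.53 and 2.73 in WT at 16 hpf against 43.5 and 33.3 at 12 hpf. It was 9.61 to 34.4-fold lower at 16 hpf in the 4 pairs (difference -3.44, SE 0.30, limma adjusted p 0.00775 unblocked and 0.000353 blocked).

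Region later-low C, chr9:45030878-45031052 on the plus strand, had 1.27 and 2.70 RPM in sa37 at 16 hpf against 26.1 and 26.7 at 12 hpf, and 1.28 and 2.14 in WT at 16 hpf against 38.6 and 19.3 at 12 hpf. It was 9.01 to 30.1-fold lower (difference -3.32, SE 0.32, limma adjusted p 0.0101 unblocked and 0.000524 blocked). Region later-low D, chr4:22950314-22950438 on the minus strand, had 1.62 and 2.62 RPM in sa37 at 16 hpf against 18.1 and 17.5 at 12 hpf, and 4.47 and 4.46 in WT at 16 hpf against 29.3 and 21.3 at 12 hpf (difference -2.43, SE 0.24, limma adjusted p 0.0104 unblocked and 0.000294 blocked). In all 4 later-low regions the 16 hpf libraries lay below every 12 hpf library, and some RNA remained at 16 hpf.

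Shares of calls were also read by width. Blocked, 32.0% of the widest quartile by replicate 2 width were called between stages and 24.7% of the narrowest, while by replicate 1 width it was 24.9% of the widest and 28.9% of the narrowest quartile. Genotype calls ran between 4.32 and 6.65% over the same 8 quartiles. Of the regions with widths within 1.5-fold, 29.7% were called between stages and 5.51% between genotypes. Where the replicate 1 cluster was more than 1.5 times wider, the shares were 24.95% and 5.59%, and in the 130 regions with a wider replicate 2 cluster they were 34.6% and 6.15%. Over all tested regions they were 27.9% and 7.36%.

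A further test took the interaction of genotype and stage. None was called by limma, 0 without the block and 0 with it, as in all 19000 regions (0%). At an unadjusted p under 0.05 there were 2 of the 3401 tested broad regions without the block and 152 with it. Over all 19000 tested regions the counts were 46 and 872, so the blocked count does not set broad regions apart. The lowest unadjusted p in the unblocked fit was that of chr21:38931799-38931927 on the plus strand (interaction A), with 1.1 and 2.82 RPM in sa37 at 16 hpf against 0 and 0.21 in WT, and 7.52 and 7.10 in sa37 at 12 hpf against 0 and 0.257 in WT. It was higher in sa37 at both stages, by 1.37 at 16 hpf and 2.89 at 12 hpf, and the averaged difference of 2.13 passed without the block (limma adjusted p 0.0313). The interaction of -1.52 (SE 0.55) did not pass (limma adjusted p 1.00 unblocked and 0.938 blocked). In chr14:16815966-16816140 on the minus strand (interaction B), sa37 had 19.9 and 27.9 RPM at 16 hpf against 9.91 and 22.5 in WT, and 0 and 0.802 at 12 hpf against 1.65 and 2.91 in WT.

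At the other end, 3 broad regions of at least 10 RPM had the smallest range among the 4 group means. Region chr25:32085728-32085911 on the plus strand averaged 58.7 ± 7.7 RPM in sa37 at 16 hpf, 59.0 ± 9.2 in sa37 at 12 hpf, 57.9 ± 7.6 in WT at 16 hpf and 59.3 ± 5.7 in WT at 12 hpf (SD, n = 2 each). Region chr10:36690043-36690224 on the minus strand averaged 72.0 ± 14 RPM in sa37 at 16 hpf, 70.5 ± 17 in sa37 at 12 hpf, 70.6 ± 16 in WT at 16 hpf and 69.9 ± 4.9 in WT at 12 hpf (SD, n = 2 each). Region chr9:9000628-9000844 on the minus strand ranged by 0.039 log2 units over its group means, from 4.44 to 5.72 RPM among replicate 1 libraries, against 15.1 to 18.6 among those of replicate 2. In each of the 3 the libraries within a group differed more than the group means did, which a choice by the smallest range of group means favours.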

How the data were processed

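Per the labels' protocols, RNA of whole embryos was column-purified, reverse transcribed and enriched for capped ends before sequencing. The authors deposited 1 RPM value per tag cluster and library, a unit inferred from the column sums. Over all listed rows, repeated ones included, these were 9.366e+05 to 9.459e+05 in replicate 1 and 1e+06 in replicate 2. Whether both numbers were scaled to the same kind of total was not tested. The submitters' processing notes name BWA, HISAT2 and build danRer10; how clusters were made and scaled is not given in the sources used here. The list of replicate 1 holds 30353 distinct clusters and no value between 0 and 0.51 RPM, and that of replicate 2 holds 42082. Blank rows and repeated rows (412 per library in replicate 1, 796 in replicate 2) were dropped. Clusters sharing at least 1 base on a strand were merged, with the end read as exclusive. Values of replicate 2 were whole multiples of 1 step within 0.1 tag in 100% of cases, so its tags could be recovered.

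Differences were tested with limma 3.58.1 (R 4.3.3) after a log2(RPM + 1) transform, fitting 1 mean per group over all 8 libraries, with no covariate and two-sided p-values adjusted over 19000 regions. Differences on this scale understate changes of low regions, and those against values at 0 depend on the pseudocount. A fit with the replicate number as a block stands beside it. The unblocked p-values, which also chose the named regions, take the offset between replicate numbers as part of the spread. The numbers come from the titles and also mark the cluster list; replicate differences of any 2 groups correlated across regions with r of 0.68 to 0.83. Other settings were tried, listed in the closing section; edgeR 4.0.16 was run on replicate 2 tags. Named regions are those with the smallest p (4 per direction for genotype and stage, 2 for interaction), the 4 strongest by mean RPM, the 3 widest in list 1 and the 3 with the smallest range of group means at 10 RPM or more. Ratios are given where every library lay above its floor. The regions and rules were chosen with earlier results of these data known. The fits were also run on simulated counts of assumed depth and spread that carried the measured shift between replicate numbers. The block fits a shift of just that form, so this run cannot show whether the block suits these data. A floor of 3 tags is 0.125 to 0.172 RPM in replicate 2; in replicate 1 the smallest listed value, 0.51 to 0.55 RPM, was used. Floors cover counting error only.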

Additional observations from a re-analysis of the deposited data

Results flagged for a closer look

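Among the 28 named broad regions, 2 had genotype differences of opposite sign at the 2 stages in both replicates. In interaction B, on chromosome 14, sa37 minus WT was 0.62 at 16 hpf and -1.26 at 12 hpf on the log2(RPM + 1) scale, an interaction of 1.88 (limma p 0.0377 unblocked and 0.000339 blocked, adjusted p 1.00 and 0.67). Its difference between stages was 4.20 in sa37 and 2.31 in WT. In later-high A, on chromosome 4, sa37 minus WT was 0.45 at 16 hpf and -0.66 at 12 hpf, an interaction of 1.11 (limma p 0.0746 unblocked and 0.0135 blocked, adjusted p 1.00 and 0.985). Neither interaction passed the adjusted threshold. At 12 hpf both regions lay at or under 2.91 RPM in every library.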

How the results depend on the processing

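Counts of called broad regions depended on the replicate number, so each is given in the order sa37 minus WT at 16 hpf, at 12 hpf and averaged, then 16 minus 12 hpf in sa37, in WT and averaged. The unblocked limma counts were 1, 1, 13, 4, 1 and 62. The replicate block gave 43, 58, 189, 499, 500 and 964, and with quantile normalization 35, 50, 178, 419, 490 and 975. Quantile normalization alone gave 5, 8, 25, 42, 52 and 226. A pseudocount of 0.1 gave 3, 3, 13, 1, 2 and 29, and with the block 10, 15, 49, 176, 196 and 681. A mean of at least 5 RPM (2617 broad regions tested) gave 2, 2, 7, 6, 1 and 46, and with the block 29, 61, 177, 464, 465 and 852. Without a filter the counts were 1, 1, 14, 5, 1 and 65. Stricter widths (at least 150 and 50 bases, 1589 regions tested) gave 0, 0, 7, 2, 1 and 24, and with the block 19, 23, 81, 229, 232 and 438. The zeros stood beside 23 regions at 16 hpf and 31 at 12 hpf with an unadjusted limma p under 0.05. Looser widths (80 and 20, 4818 regions tested) gave 3, 2, 17, 6, 2 and 87, and with the block 57, 84, 281, 702, 714 and 1376. The interaction count was 0 in every limma fit run, beside 0 to 204 regions at an unadjusted p under 0.05 over the settings that kept all libraries. In edgeR on replicate 2 alone, with 1 residual degree of freedom, 359 were called between genotypes and 906 between stages. Shares over all tested regions were given above for the unblocked and blocked fits and for some of the blocked quantile counts. All other counts here, edgeR included, have no such share beside them. They do not set broad regions apart from the background. The blocked filter, pseudocount and width settings and edgeR were chosen after seeing the data. The planned edgeR and DESeq2 fits on all 8 libraries were not run.

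Leaving out 1 library gave unblocked counts of 1 to 2, 1 to 1, 2 to 5, 0 to 1, 0 to 0 and 2 to 20, and blocked counts of 8 to 32, 10 to 45, 56 to 103, 71 to 450, 148 to 438 and 490 to 790, with the lone sample of a group assumed to vary like the others. Every library moved the averaged genotype count by over 1.5 times. Blocked, it was 56 and 58 without sa37 at 16 hpf (replicates 1 and 2), 74 and 81 without sa37 at 12 hpf, 90 and 83 without WT at 16 hpf, and 87 and 103 without WT at 12 hpf. The averaged stage count was 490 without replicate 1 of sa37 at 16 hpf and 790 without replicate 2 of WT at 12 hpf. Of 15 named genotype and stage calls made unblocked, 12 were lost without some library (adjusted p 0.0501 to 0.199), while sa37-high A, sa37-high B and later-high A kept theirs; blocked, no named call was lost. No named difference reversed in any setting. The counts with 1 library left out have no share over all tested regions beside them and do not set broad regions apart. The broad share of RPM, 14.8% over libraries, was 6.26% with stricter and 20.48% with looser widths. Weak regions are limited in replicate 1, which lists nothing between 0 and 0.51 RPM; whether by depth or by a reporting bound was not tested.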

Other observations

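A few broad regions had unlike genotype differences in the 2 replicate numbers, at both stages. They were chosen after their values were seen, by the largest gap between the replicates' genotype differences. The gap exceeded 2 log2 units in 12 of the 3401 tested broad regions for the genotype difference, and in 1 for the difference between stages. Such gaps were not counted over all tested regions, so these counts do not set broad regions apart. Region chr15:46093252-46093451 on the plus strand was listed at 0 RPM in both replicate 2 libraries of sa37, against 39.98 at 16 hpf and 39.4 at 12 hpf in WT of that number. In replicate 1 it had 24.6 and 19.7 RPM in sa37 at 16 and 12 hpf, against 32.5 and 20.9 in WT. Region chr15:104223-104362 on the minus strand showed the difference in replicate 1, with 43.2 and 42.0 RPM in sa37 at 16 and 12 hpf against 0 and 0 in WT; all replicate 2 values were 1.26 RPM or less. Region chr5:837355-837637 on the minus strand turned round between the numbers. In replicate 1 it had 0.75 and 0 RPM in sa37 at 16 and 12 hpf, against 31.4 and 62.5 in WT, and in replicate 2 it had 9.18 and 21.2 RPM in sa37 against 2.52 and 1.67 in WT. With the replicate block none of these 3 was called, with limma adjusted p-values of 0.161, 0.133 and 0.622. Replicate number and cluster list cannot be told apart here.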
